A study of Rattus norvegicus with 10 samples.

Results

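This section describes 8 genes that mark successive stages of adult neurogenesis, measured by RNA sequencing in the left hippocampus of 10 female rats. The members were chosen by gene symbol from a list of 9. The symbols Sox2, Nes, Mki67, Neurod1, Dcx, Sox4, Sox11 and Igfbpl1 were found among the 17168 genes of the count table, and Eomes was not analysed here. All 10 animals were TgF344-AD rats, an inbred line that carries mutant human transgenes, APP among them, under the mouse prion promoter and is used as a model of Alzheimer disease. The ibudilast group of 5 received the drug in chow from 5 months of age for 6 months. The untreated group of 5 received rodent chow without it, and tissue was taken at 11 months of age. Ibudilast is an inhibitor of cyclic nucleotide phosphodiesterases. The labels used here describe no animals without the transgenes, so every comparison is between treated and untreated transgenic females. The comparison asks which hippocampal transcripts differ in level with treatment.

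In the adult rodent hippocampus new granule neurons arise in the subgranular zone of the dentate gyrus. Radial glia-like stem cells, which contain the transcription factor SOX2 and the intermediate filament nestin, divide to give intermediate progenitors, and these give neuroblasts that switch on NEUROD1, SOX4, SOX11 and the microtubule-binding protein doublecortin before they mature. The process declines steeply with age. Several of these genes are also transcribed elsewhere in the brain: Sox2 in astrocytes, Nes in cells of blood vessels, Neurod1 in mature granule neurons of the hippocampus and cerebellum, and Dcx in some immature neurons of the cortex. The libraries are of whole tissue, so fewer cells of a type and less RNA per cell cannot be told apart.

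Total estimated counts were between 6960066 and 8204390 in the untreated libraries and between 7553804 and 10121571 in the ibudilast libraries. Levels are given as CPM, with library sizes corrected by TMM factors. The granule neuron gene Prox1 was present in every library, at 11.1 to 56.3 CPM in the untreated and 8.92 to 27.5 CPM in the ibudilast group. A pair of libraries held many transcripts of neighbouring tissue. The summed level of 10 cerebellar markers reached 4126 CPM in ibudilast 3, while the other 9 libraries had 33.7 to 139 CPM. That of 7 choroid plexus markers was 2567 CPM in untreated 1, against 4.81 to 129.7 CPM elsewhere. Some fits below leave out this pair and also ibudilast 5. The sums of ibudilast 5 on these lists were 139 and 109 CPM, and it held no value flagged as an outlier. Neocortical markers summed to 348 to 532 CPM in the untreated group and to 619 to 993 CPM in 4 ibudilast libraries, with ibudilast 3 at 363 CPM. Across the 11682 genes tested, 19.9% were called higher and 18.5% lower with ibudilast at an adjusted p under 0.05 in edgeR (Benjamini-Hochberg), 38.4% in all.

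Of the 8 genes, Sox2 fell with ibudilast, 6 had no call, and Igfbpl1 had too few counts for the fit across genes. The 1 called gene among 7 tested is below the 38.4% of all tested genes that were called, so the group as a whole did not stand out. Groups that did not overlap were found for Sox2 alone among the 7, where 24.2% of all tested genes had such groups. Neurod1 and Nes had no call with all 10 libraries and were called lower without ibudilast 3. The levels of all 8 genes are drawn by library in the plot of CPM by group.

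**Figure D1:**
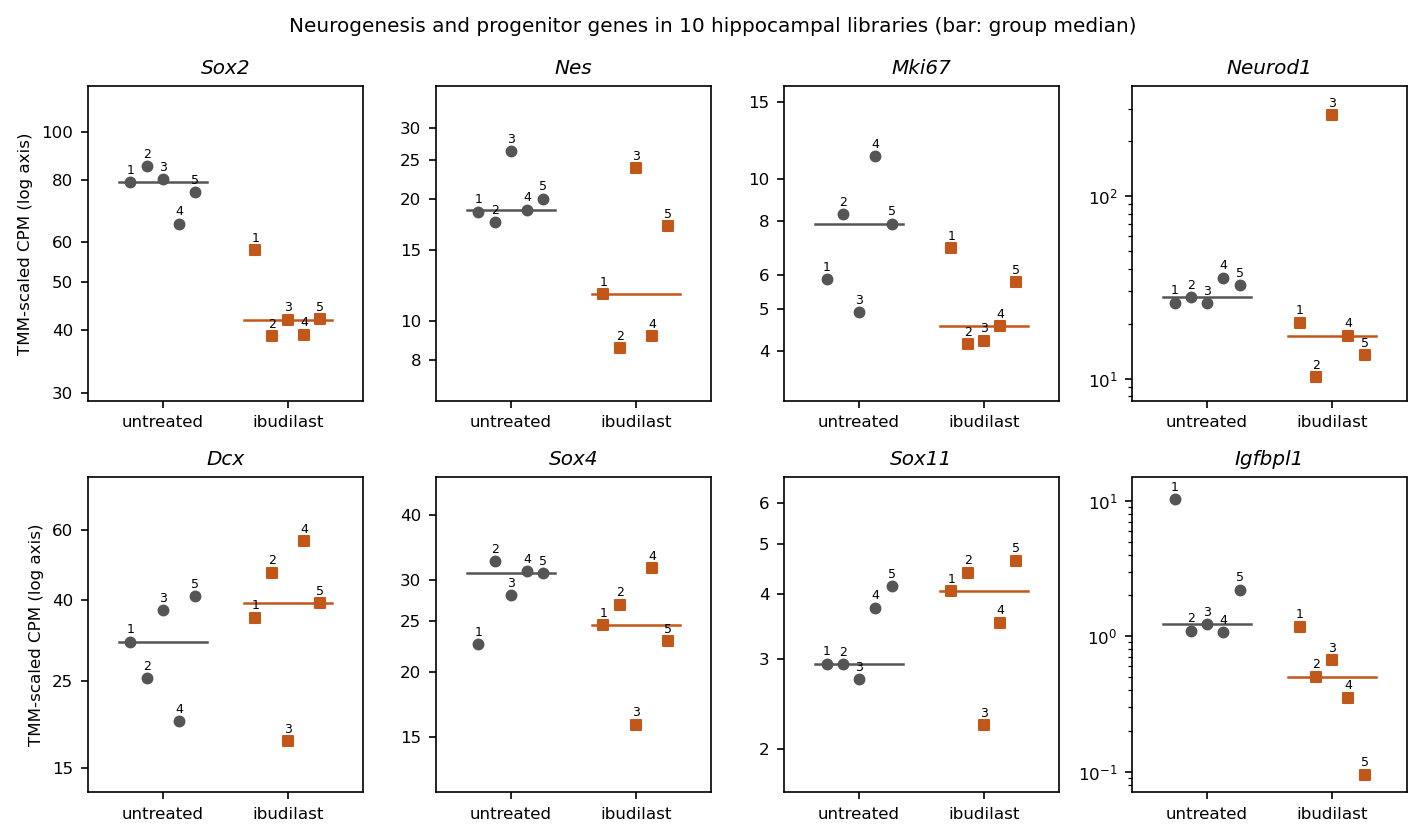
TMM-scaled CPM (log axis, a separate range for each gene) of 8 genes in 5 untreated (grey circles) and 5 ibudilast (orange squares) libraries. Digits are replicate numbers and bars are group medians. Sox2 separates the groups, from 65.5 to 85.2 CPM against 39.0 to 57.8 CPM, and ibudilast 3 stands far above all others for Neurod1 at 275 CPM.

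The sequences before the transcription start are printed for Sox2, the gene with a call, for Neurod1, whose direction depended on 1 library, and for Dcx, the most used marker of young neurons. Each is 250 bases long, ends just before the start site, and comes from the RefSeq table of promoters (build GRCr8). That table matched 7 of the 8 genes. The counts were made on rn6, so these positions do not refer to the build of the counts. The Sox2 sequence is chr2:119464881-119465130 (plus strand), that of Neurod1 is chr3:84770455-84770704 (minus strand) and that of Dcx is chrX:112304162-112304411 (minus strand). Capitals mark the E-box CANNTG, the letters read by basic helix-loop-helix factors such as NEUROD1, and both strands were searched.
Sox2: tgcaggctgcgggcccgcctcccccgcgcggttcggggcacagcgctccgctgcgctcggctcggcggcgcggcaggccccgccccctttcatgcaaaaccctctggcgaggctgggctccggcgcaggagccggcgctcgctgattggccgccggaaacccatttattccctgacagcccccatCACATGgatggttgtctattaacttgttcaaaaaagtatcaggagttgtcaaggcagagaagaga
Neurod1: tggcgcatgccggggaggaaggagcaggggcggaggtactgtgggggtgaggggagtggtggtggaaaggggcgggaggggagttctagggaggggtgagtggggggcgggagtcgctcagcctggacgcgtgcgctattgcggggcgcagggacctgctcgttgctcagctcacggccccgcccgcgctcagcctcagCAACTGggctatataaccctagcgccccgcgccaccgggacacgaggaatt
Dcx: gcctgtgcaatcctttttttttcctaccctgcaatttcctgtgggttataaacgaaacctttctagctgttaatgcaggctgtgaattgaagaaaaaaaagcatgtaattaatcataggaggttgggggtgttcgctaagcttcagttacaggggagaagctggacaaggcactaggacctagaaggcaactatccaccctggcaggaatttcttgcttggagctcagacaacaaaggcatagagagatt
Sox2 had 1 E-box, which began 65 bases before the start, and Neurod1 had 1, which began 51 bases before it. Dcx had 0 in this window. An E-box is common, and 65.5% of 33469 promoters of this length held at least 1. The CCAAT box (CCAAT, both strands) was found 1 time in Sox2 and 1 time in Sox11, 4 times in Mki67, and in 34.0% of all promoters. The core of the cAMP response element (TGACG, both strands) was searched because the drug acts on cyclic nucleotides. It was found in 18.2% of all promoters and was not among the letters of the 7 windows. A match describes letters and is not a measured binding site.

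Sox2, which encodes a transcription factor that maintains neural stem cells and is also present in astrocytes, was lower in every ibudilast library than in any untreated one. It stood at 79.2, 85.2, 80.5, 65.5 and 75.7 CPM in untreated 1 to 5 and at 57.8, 39.0, 42.0, 39.2 and 42.1 CPM in ibudilast 1 to 5. Ibudilast 1 was the highest of its group and lay closest to the untreated range. The means were 77.2 ± 7.41 and 44.0 ± 7.86 CPM (SD, n = 5 each). This is a log2 difference of -0.81 ± 0.12 (SE) with a 95% interval from -1.08 to -0.54 and an edgeR adjusted p = 0.00126. On the linear scale the ibudilast level was 0.570 of the untreated level. The gene was called in all 10 fits that left out 1 library. Within the animals numbered under 100 in the titles the log2 fold change was -0.80 (adjusted p = 0.0263). Within those numbered over 200, which are 2 per group, it was -0.76 and edgeR gave an adjusted p = 0.0519. A long noncoding gene overlaps Sox2 in the RefSeq annotation, and the sources used here do not say if strand was used in counting.

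Astrocyte markers moved with Sox2. Their summed level over 10 genes was 5032 to 7052 CPM in the untreated and 3751 to 4684 CPM in the ibudilast group, so these groups did not overlap either. The lowest untreated and the highest ibudilast library were untreated 4 and ibudilast 1 for both Sox2 and the astrocyte sum. Of the 10 markers 5 fell and 0 rose, and their median was -0.43 (log2). That is 50% called, all of them lower, where 38.4% of all tested genes were called and 18.5% were lower. When ibudilast 3, ibudilast 5 and untreated 1 were left out 7 fell and 1 rose. Gja1, which encodes the gap junction protein connexin 43, fell by 0.87 on the log2 scale. Microglial markers moved further in the same direction, from 601 to 938 CPM summed in the untreated to 293 to 535 CPM in the ibudilast group. Of 10 microglial markers 9 fell (90%), where 18.5% of all tested genes did. With the astrocyte score as a covariate the Sox2 difference was -0.42 (edgeR adjusted p = 0.233), a fit in which 0 of all genes were called and 2061 had an unadjusted p under 0.05. The part of these cell types in the Sox2 difference was not otherwise tested.

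Nes encodes nestin, an intermediate filament protein of neural stem cells that is also made by vascular cells. Its level was 18.6, 17.6, 26.3, 18.8 and 20.0 CPM in untreated 1 to 5 and 11.6, 8.55, 23.8, 9.15 and 17.1 CPM in ibudilast 1 to 5. Ibudilast 1, 2 and 4 were below the untreated group, ibudilast 3 lay within it and ibudilast 5 just under it. The log2 fold change was -0.52 ± 0.27 (SE; edgeR adjusted p = 0.141), with a 95% interval from -1.11 to 0.07. Without ibudilast 3 it was -0.78 (adjusted p = 0.0166). Without ibudilast 3 and untreated 1 it was -0.81 (adjusted p = 0.0267). Without ibudilast 3, ibudilast 5 and untreated 1 it was -1.08 (adjusted p = 0.0074), a fit that drops the highest Nes values of the ibudilast group. With the neocortical score as a covariate it was 0.069 (edgeR adjusted p = 0.848), and with the astrocyte score 0.016 (adjusted p = 0.989). Both of these fits kept ibudilast 3. Markers of endothelium and pericytes also set ibudilast 1, 2 and 4 below ibudilast 3 and 5. Their sum was 430 to 614 CPM in the untreated group, 293 to 335 CPM in ibudilast 1, 2 and 4, and 449 and 482 CPM in ibudilast 3 and 5. The order within the untreated group differed: untreated 2 had the least Nes, but its marker sum of 540 CPM was above the group median of 514 CPM. Of these 11 markers 4 fell and 0 rose, with a median of -0.18 (log2). That is 36.4% called, near the 38.4% of all tested genes, of which 18.5% fell. Without the same 3 libraries 7 fell and 0 rose, and the median was -0.91. Their part in the Nes difference was not tested.

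Mki67 encodes Ki-67, a nuclear protein of dividing cells of any type. It was measured by 36 to 84 counts per library in the untreated and 33 to 61 in the ibudilast group. The levels were 5.87, 8.29, 4.93, 11.3 and 7.88 CPM in untreated 1 to 5 and 6.92, 4.15, 4.23, 4.58 and 5.78 CPM in ibudilast 1 to 5. Only ibudilast 2, 3 and 4 were below the whole untreated range. The log2 fold change of -0.58 ± 0.24 (SE) missed the threshold (edgeR adjusted p = 0.0808), and its 95% interval, not adjusted over genes, ran from -1.11 to -0.04. It passed when ibudilast 1 was left out (-0.70, adjusted p = 0.0466) and in none of the other 9 such fits.

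Neurod1 encodes a basic helix-loop-helix factor that drives the differentiation of granule neurons. It stood at 26.0, 27.9, 25.9, 35.6 and 32.3 CPM in untreated 1 to 5. The ibudilast libraries split, with 20.2, 10.2, 17.1 and 13.4 CPM in ibudilast 1, 2, 4 and 5 and 275 CPM in ibudilast 3. Thus 4 ibudilast libraries were below the whole untreated group and 1 was far above it. With all 10 libraries the log2 fold change was 1.19 ± 0.85 (SE; edgeR adjusted p = 0.287), and its 95% interval ran from -0.68 to 3.06. Without ibudilast 3 it was -0.95 ± 0.19 (SE; adjusted p = 0.00349), a level 0.519 of the untreated one. Without ibudilast 3, ibudilast 5 and untreated 1 it was -0.94 (adjusted p = 0.0183). The direction therefore depended on a library that also held cerebellar transcripts, where Fat2 stood at 1183 CPM and Gabra6 at 445 CPM. Both genes mark granule cells of the cerebellum, and elsewhere they reached no more than 5.59 and 0.488 CPM. The part of cerebellar RNA in the Neurod1 value was not tested.

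Levels of hippocampal neuron markers are given beside Neurod1 because mature neurons also transcribe it. The summed dentate granule neuron list ran from 237 to 662 CPM in the untreated and from 238 to 624 CPM in the ibudilast group, with medians of 504 and 307 CPM. The 624 CPM was that of ibudilast 3, where Calb1 alone had 471 CPM. The other ibudilast libraries had 238 to 437 CPM. The part of cerebellar RNA in this sum was not tested. Of the 9 tested genes in this list 2 fell and 0 rose. That is 22.2% called, below the 38.4% of all tested genes, of which 18.5% fell. C1ql2, which encodes a synaptic C1q-like protein and was 1 of the 2, had a log2 fold change of -1.87, and passed in only 2 of the 10 fits with 1 library left out, those without untreated 1 or ibudilast 1. Under the neocortical score it did not pass (-2.05, edgeR adjusted p = 0.227). Of 7 tested CA field genes 4 fell and 0 rose, which is 57.1% called, where 18.5% of all tested genes fell. Without ibudilast 3, ibudilast 5 and untreated 1 the counts were 1 lower and 0 higher in the granule neuron list, and 2 lower and 1 higher in the CA field list. With the granule neuron score as a covariate the log2 fold change of Neurod1 was 0.64 (edgeR adjusted p = 0.717), in a fit that kept ibudilast 3.

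**Figure D2:**
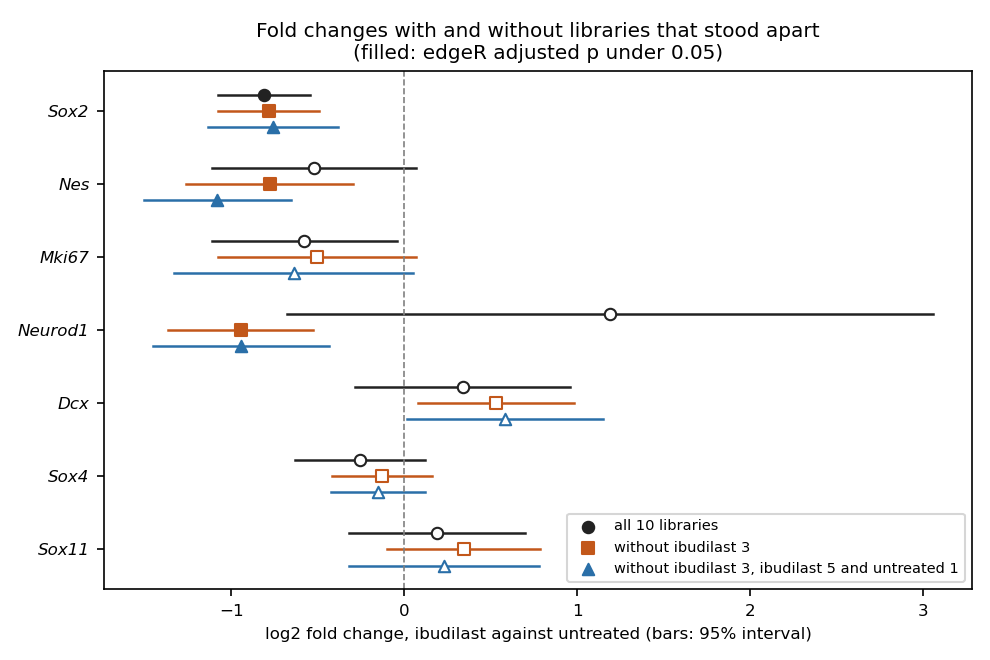
Log2 fold change (x axis) of the 7 tested genes with all 10 libraries (black circles), without ibudilast 3 (orange squares) and without ibudilast 3, ibudilast 5 and untreated 1 (blue triangles). Bars are 95% intervals and filled symbols passed edgeR. Sox2 stayed between -0.81 and -0.76, while Neurod1 went from 1.19 to -0.95 when ibudilast 3 was left out.

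The 3 genes of immature neurons that showed no call were Dcx, Sox4 and Sox11. Dcx, which encodes doublecortin, stood at 31.4, 25.4, 37.6, 19.8 and 40.9 CPM in untreated 1 to 5 and at 36.0, 46.9, 17.6, 56.2 and 39.2 CPM in ibudilast 1 to 5. The groups overlapped, with the highest value in ibudilast 4 and the lowest in ibudilast 3. The log2 fold change was 0.34 ± 0.28 (SE; edgeR adjusted p = 0.364), with a 95% interval from -0.28 to 0.96, so the data allow anything from 0.822 to 1.94 times the untreated level. Without ibudilast 3 it was 0.53 (edgeR adjusted p = 0.0585). The 95% interval of that fit, not adjusted over genes, ran from 0.08 to 0.98. Neocortical markers were also at their highest in ibudilast 4. With the neocortical score in the model the Dcx difference was -0.52 (edgeR adjusted p = 0.186), in a fit that kept ibudilast 3. The score was -0.30 or lower in every untreated library and -0.77 in ibudilast 3. It was 0.34 or higher in the rest of the ibudilast group. Only ibudilast 3 thus had a score like the untreated ones, so this fit cannot separate treatment from score without it. The score without ibudilast 3 was not tested. With all 10 libraries the interval took in both signs, so the sign was not settled.

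Sox4 and Sox11 encode related SOX factors that act in young neurons. Sox4 had 22.6 to 32.6 CPM in the untreated and 15.8 to 31.6 CPM in the ibudilast group, with ibudilast 3 the lowest. Its log2 fold change was -0.26 ± 0.17 (SE; edgeR adjusted p = 0.254), with a 95% interval from -0.63 to 0.12. Sox11 was measured by 20 to 49 counts per library. It had 2.74 to 4.14 CPM in the untreated and 2.23 to 4.64 CPM in the ibudilast group, again lowest in ibudilast 3. Its log2 fold change was 0.19 ± 0.23 (SE; adjusted p = 0.537), with a 95% interval from -0.32 to 0.70. Neither gene passed with any 1 library left out. With the neocortical score as a covariate Sox4 passed as lower (-0.75, edgeR adjusted p = 0.0114) and Sox11 did not (-0.31, adjusted p = 0.428). This fit kept ibudilast 3.

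Igfbpl1, which encodes an insulin-like growth factor binding protein-like factor found in neuroblasts, was the rarest of the 8. Its counts were 70, 9, 9, 8 and 16 in untreated 1 to 5 and 9, 4, 6, 3 and 1 in ibudilast 1 to 5, which is 1.08 to 10.3 CPM and 0.0947 to 1.17 CPM. Untreated 1 was far above the others, and ibudilast 1 lay within the untreated range. The mean of log2(CPM + 0.5) was lower by 1.40 with ibudilast, that is a difference of -1.40 (two-sided exact permutation p = 0.0238, where 252 arrangements allow 0.00794 at the least). The exact p is not adjusted over genes. Without untreated 1 the difference was -0.89 (exact permutation p = 0.0317). It did not pass without ibudilast 2, 3, 4 or 5, where the exact p was between 0.0635 and 0.0714. Untreated 1 was also the library with choroid plexus transcripts, where Ttr reached 2480 CPM, and had the most of the ependymal markers, 55.6 CPM summed against 17.5 to 34.4 CPM elsewhere. The part of either in the Igfbpl1 level was not tested.

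**Figure D3:**
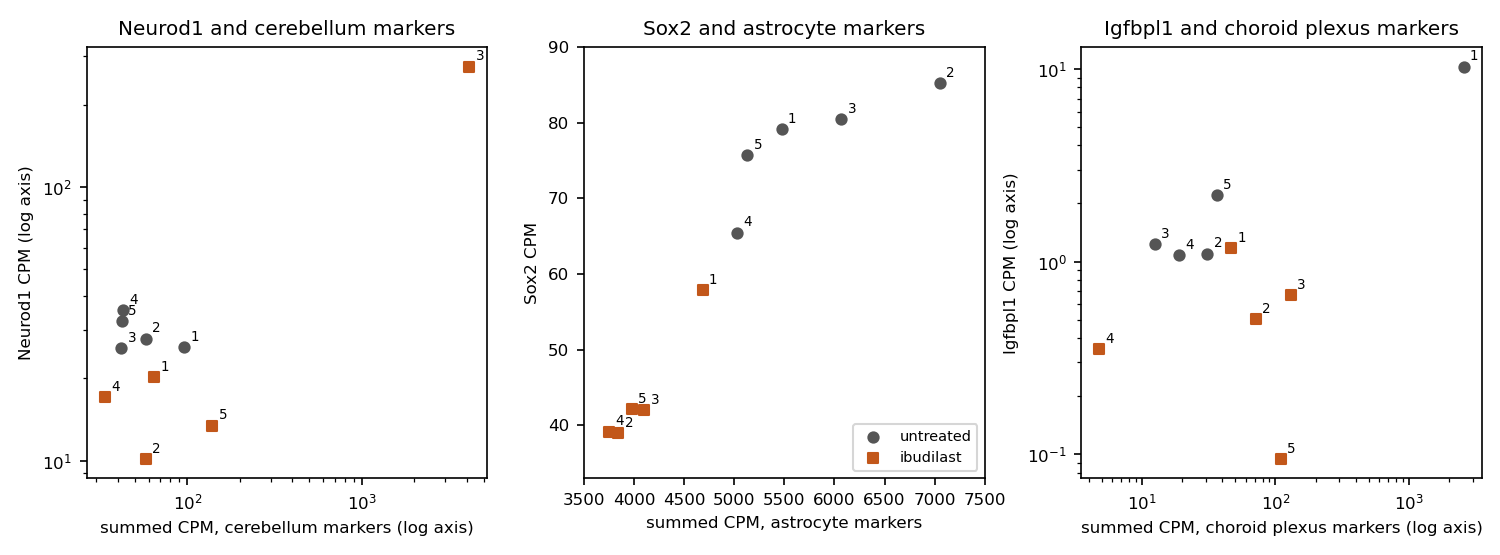
CPM of Neurod1, Sox2 and Igfbpl1 against the summed CPM of cerebellar, astrocyte and choroid plexus markers in the 10 libraries (digits are replicate numbers; outer panels have log axes). Ibudilast 3 and untreated 1 stand alone in the outer panels, at 275 CPM of Neurod1 and 10.3 CPM of Igfbpl1, and in the middle panel all ibudilast libraries lie below all untreated ones on both axes.

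How the members varied together within the groups depended on the libraries included. After each group's mean was subtracted, Dcx and Sox4 had r = 0.631 over the 10 libraries, but 0.232 without ibudilast 3 and untreated 1. Sox4 and Nes had r = -0.771, and -0.832 without those libraries. These values share library depth and tissue makeup and are given as a description only. Among 10204 other genes of at least 5 CPM, those with the pattern most like Dcx on this measure were Htr2a, which encodes a serotonin receptor (r = 0.98), Slc35f1 (0.958) and Nap1l1 (0.957). Those most like Sox4 were Zdhhc8 (0.982), Lrrk2 (0.97) and Adrb1 (0.965). Those most like Sox11 were Dhx40 (0.944), Sstr2 (0.926) and Ppp1r13b (0.922).

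Other genes of stem cells were more often lower than higher. Of 16 tested genes in a list of neural stem cell and radial glia genes 6 fell and 1 rose. A call was made for 43.8% of them, near the 38.4% of all tested genes. By direction 37.5% fell and 6.25% rose, where 18.5% and 19.9% of all tested genes did. The median of the list was -0.29 (log2), where all tested genes had a median of 0.01. Without ibudilast 3, ibudilast 5 and untreated 1 the counts were again 6 and 1, and the median was -0.58. Fabp7, which encodes a fatty acid-binding protein of radial glia and astrocytes, stood at 92.7 to 143 CPM in the untreated and 25.1 to 59.4 CPM in the ibudilast group. The log2 difference was -1.67 ± 0.22 (SE), and edgeR gave an adjusted p = 0.000946. Hes1, a repressor that is a target of Notch signalling, went from 16.7 ± 4.94 to 7.32 ± 1.30 CPM (SD, n = 5 each). Gfap, an intermediate filament gene of radial glia and astrocytes, went from 1887 ± 668 to 797 ± 289 CPM, and did not pass with the neocortical score as a covariate (-1.08, edgeR adjusted p = 0.1002). Hopx and Nr2e1, both used as stem cell markers, did not pass (log2 fold changes of 0.39 and -0.29).

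Of 22 listed genes of the cell cycle, 12 had enough counts to be tested, of which 3 fell, 1 rose and 8 did not pass, with a median of -0.21. A call was thus made for 33.3% of them, near the 38.4% of all tested genes. The counts were 1 lower and 1 higher without ibudilast 3, ibudilast 5 and untreated 1. Ccnd1, which encodes cyclin D1 of the early cell cycle, stood at 36.9 to 48.1 CPM in the untreated and 26.1 to 30.3 CPM in the ibudilast group. The log2 difference was -0.61 ± 0.09 (SE), with edgeR adjusted p = 0.00126. Mcm3, a component of the DNA helicase, and Tk1, a thymidine kinase, had log2 fold changes of -1.10 and -0.91. Mcm3 lost its call without untreated 1, untreated 2, untreated 4 or ibudilast 5, and Tk1 kept it only without untreated 4, ibudilast 1 or ibudilast 3. Mcm3 also missed the threshold with the neocortical score (-1.39, edgeR adjusted p = 0.0636), and both missed it with the granule neuron score (-1.07 and -0.82, adjusted p = 0.0582 and 0.0988). Tpx2, a spindle factor, rose from 2.74 ± 0.84 to 10.7 ± 7.08 CPM. It was highest in ibudilast 4, 2 and 5, at 20.1, 15.5 and 9.94 CPM, the libraries with the most neocortical markers, and with the neocortical score as a covariate it did not pass (0.66, edgeR adjusted p = 0.314). The summed level of the 22 genes was 154 to 186 CPM in the untreated and 133 to 140 CPM in the ibudilast group. This sum is weighted to its most abundant genes and does not show a fall across the list. The means of Ccnd1, Ccnd2, Pcna and Mcm7 were 43.4, 36.7, 28.2 and 22.3 CPM in the untreated group. They were 28.4, 25.5, 23.2 and 20.4 CPM in the ibudilast group, and of these genes only Ccnd1 was called. Oligodendrocyte precursors also divide in the adult brain. Of 11 of their markers 4 fell (36.4%) and 1 rose (9.09%), where 18.5% and 19.9% of all tested genes did. That is 45.5% called. Without ibudilast 3, ibudilast 5 and untreated 1 the counts were 3 lower and 2 higher.

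Of 20 tested genes of neuroblasts and immature neurons 4 rose and 4 fell, which is 20.0% in each direction, near the 19.9% higher and 18.5% lower of all tested genes. The median was -0.03 (log2). Without ibudilast 3, ibudilast 5 and untreated 1 4 rose, 2 fell and the median was 0.09, and DESeq2 with all libraries called 5 higher and 6 lower. Elavl4, which encodes a neuronal RNA-binding protein, rose from 23.4 ± 9.25 to 55.8 ± 11.7 CPM (SD, n = 5 each). Stmn1, which encodes the microtubule regulator stathmin, rose from 314 ± 70.9 to 616 ± 189 CPM, and with the neocortical score as a covariate it did not pass (0.45, edgeR adjusted p = 0.159). Cd24, a surface protein gene of neuroblasts and ependyma, fell from 111 ± 26.5 to 50.2 ± 16.6 CPM. Bhlhe22, a transcription factor gene of hippocampal and cortical neurons, fell from 253 ± 68.3 to 92.4 ± 43.0 CPM. In a list of 6 tested genes for neuroblasts of the ventricular zone and olfactory system, Meis2 rose and 0 fell, and Meis2 did not pass with the neocortical score as a covariate (0.28, edgeR adjusted p = 0.474). The list was fixed to show neighbouring germinal tissue, and its sum of 91.5 to 139 CPM in the untreated group overlapped the 61.0 to 172 CPM of the ibudilast group.

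**Figure D4:**
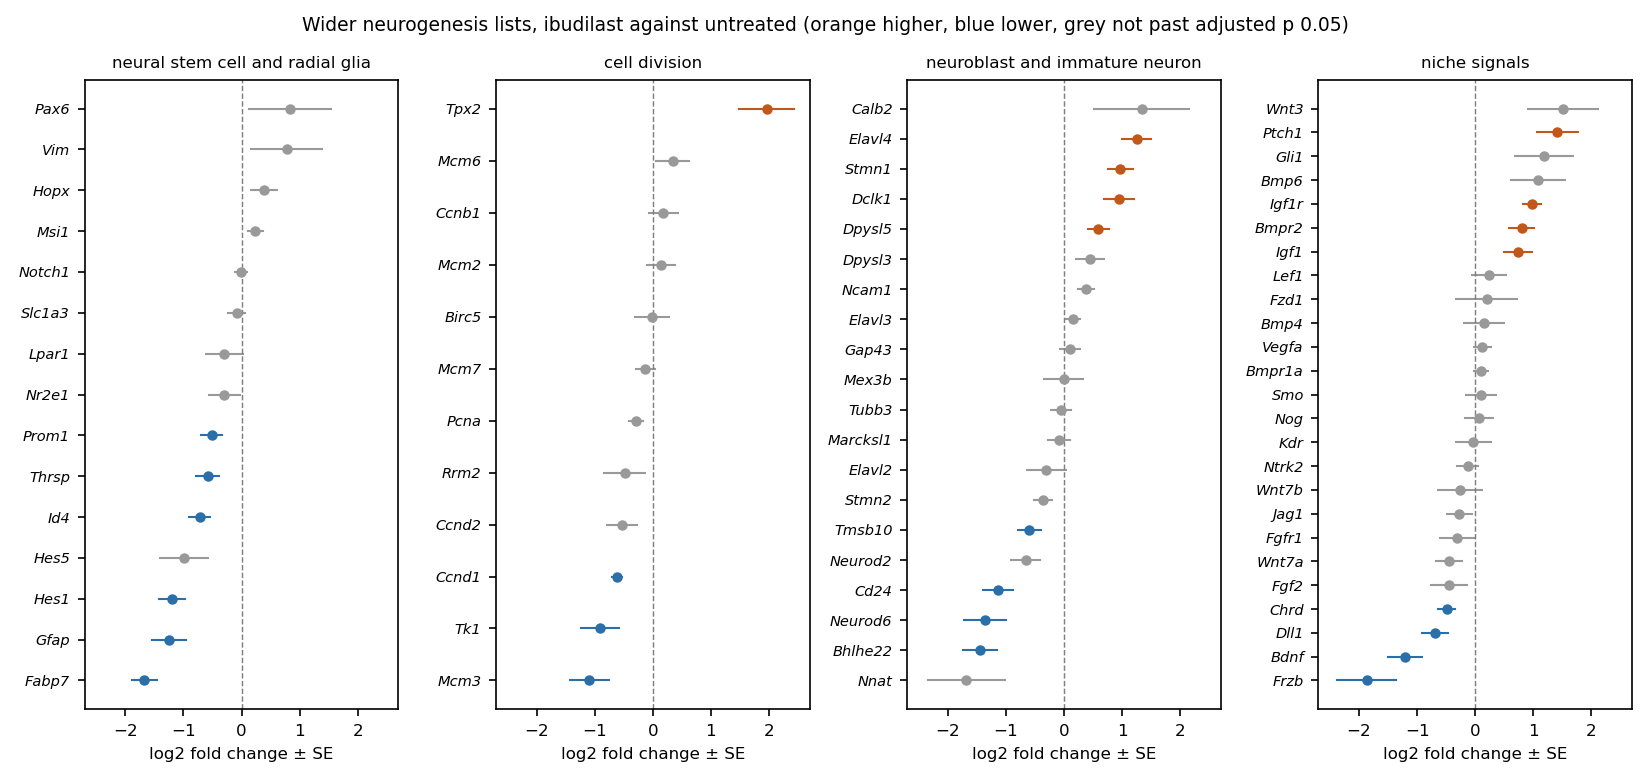
Log2 fold change ± SE (x axis) of the tested genes in 4 wider lists, in orange where edgeR called a gene higher with ibudilast, blue where lower and grey where it made no call. In the stem cell list 6 genes are blue and 1 gene is not drawn, and in the neuroblast list 4 are blue and 4 orange.

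Of 25 tested genes for signals that act on the neurogenic niche 4 rose and 4 fell, and the median was 0.10 (log2). That is 32% called, below the 38.4% of all tested genes. With ibudilast 3, ibudilast 5 and untreated 1 left out 4 of 26 rose, 3 fell and the median was -0.16, and DESeq2 with all libraries called 7 higher and 4 lower. Igf1r, the receptor gene for insulin-like growth factor 1, rose by 0.98 ± 0.16 on the log2 scale (SE), and Bmpr2, a receptor gene for bone morphogenetic proteins, by 0.80 ± 0.21. Bmpr2 did not pass with the neocortical score as a covariate (0.41, edgeR adjusted p = 0.223). Ptch1, the receptor gene for sonic hedgehog, had a log2 fold change of 1.42 with all libraries and 0.92 without ibudilast 3, where it was highest, and passed edgeR in both. With the granule neuron score it was 1.22 (edgeR adjusted p = 0.0572). Bdnf, a neurotrophin gene, fell by 1.21 ± 0.29 on the log2 scale (SE; edgeR adjusted p = 0.00803). Among 9 other SOX genes 1 rose and 1 fell, which is 22.2% called and also below that share. Sox6, a gene of oligodendrocyte precursors and interneurons, went from 3.32 ± 0.49 to 7.93 ± 2.52 CPM and did not pass with the neocortical score as a covariate (0.50, edgeR adjusted p = 0.117). Sox18, an endothelial gene, went from 17.0 ± 5.05 to 8.97 ± 2.01 CPM and did not pass under that score either (-0.66, adjusted p = 0.123). Sox12, which belongs with Sox4 and Sox11 in the SoxC group, had a log2 fold change of 0.33 and no call.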

How the data were processed

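The authors deposited expected counts, which RSEM estimates for each gene. The submitters' processing notes name RSEM 1.2.15, Bowtie2 2.1.0, bcl2fastq 2.17 and build rn6. The authors also deposited a signal table of TMM-scaled CPM, and CPM computed here from the counts matched 99.98% of its values above 0 for tested genes within 1%. Per the labels, libraries were stranded mRNA. Between 10.6% and 11.3% of counts per library were not whole, and counts were rounded.

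Genes kept by filterByExpr were tested with edgeR 4.0.16 (R 4.3.3) by its quasi-likelihood test, with TMM factors over all genes and a threshold of 0.05 on the Benjamini-Hochberg adjusted p. The script was tested on simulated data first. Titles give each library an animal number, and p-values measure the spread between these 10 libraries. Igfbpl1, removed by the filter, had a two-sided exact permutation test with a pseudocount of 0.5 CPM. Scores are mean z-scores of log2 CPM over a list. Members, lists and tests were chosen with earlier results of these data known. Named genes are the members, up to 4 called genes of smallest p from each list, the 3 genes most like Dcx, Sox4 and Sox11, and 6 region markers, not all printed, and some genes are not reported here. Hopx, Nr2e1 and Sox12 were named after their values were seen. Lists overlap in a few genes, and those for oligodendrocyte precursors, microglia, vessels and regions serve as markers of other cells.

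Alternatives were other factors and filters, DESeq2 1.42.0, limma-voom and limma-trend (limma 3.58.1), unrounded counts, the replicate number as a block, the animal number range, and libraries left out. The animal number range stands for nothing the labels explain.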

Additional observations from a re-analysis of the deposited data

Results flagged for a closer look

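In groups of 5, a sample was singled out when its gap to the nearest value, divided by the range, passed Dixon's 95% critical value of 0.71. Of 48 groups looked at, 9 held such a value. The rate of 1 in 20 behind this rule holds for independent groups with a normal spread. These groups were unlogged levels of the same 10 libraries, so the 9 cannot be set against that rate. Among the 8 genes these were Neurod1 at 275 CPM in ibudilast 3, with the next at 20.2 CPM, and Igfbpl1 at 10.3 CPM in untreated 1, with the next at 2.21 CPM. Smaller gaps were Sox2 at 57.8 CPM in ibudilast 1, above 42.1 CPM, and Nes at 26.3 CPM in untreated 3, above 20.0 CPM. Among summed marker lists they were the cerebellar sum of 4126 CPM in ibudilast 3 and the choroid plexus sum of 2567 CPM in untreated 1. The sum of other SOX genes was 205 CPM in untreated 1 and 235 CPM in ibudilast 2, and that of CA field genes was 1851 CPM in ibudilast 1.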

How the results depend on the processing

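Of the 8 genes 0 were higher and 1 lower with all libraries. The number lower was 2 with no filter, with at least 1 CPM in 5 libraries, with the replicate block and with the neocortical score, which also gave 1 higher. It was 3 without ibudilast 3, ibudilast 5 and untreated 1 and without ibudilast 3 and untreated 1, 0 with the astrocyte score, and 1 to 3 with 1 library left out. Both looser filters admitted Igfbpl1 (-2.50 and -2.51; edgeR adjusted p = 0.0314 and 0.0288). Sox2 was called in 16 of 18 other settings and all 10 with 1 library left out. Neurod1 was -0.13 under limma-voom and limma-trend, -0.31 with the replicate block, -1.13 with animal numbers over 200 only (adjusted p = 0.0463), -0.94 without ibudilast 3, ibudilast 5 and untreated 1, -0.99 without ibudilast 3 and untreated 1, and -0.95 to 1.46 with 1 library left out, lowest without ibudilast 3. With the neocortical score, in a fit that kept ibudilast 3, it was 2.12 (edgeR adjusted p = 0.00672). With that score Dcx was -0.52, Sox11 -0.31 and Nes 0.069, and with the astrocyte score they were -0.11, -0.084 and 0.016. The cause of these reversals was not tested. Igfbpl1, which had no call in the main fit, ran from -1.59 to -0.89 with 1 library left out. Its unadjusted exact permutation p was 0.0238 with pseudocounts of 0.1 and 1. It was 0.0635 to 0.0714 without ibudilast 2, 3, 4 or 5.

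Over all genes, 2326 were higher and 2163 lower. Other counts were 1178 and 801 with animal numbers under 100 only, 409 and 127 with those over 200 only, and 0 and 0 with the astrocyte score. The number lower was 1353 without ibudilast 3, ibudilast 5 and untreated 1 and 1300 with the neocortical score. Upper-quartile factors gave 1997 and 2655, and library totals alone 2572 and 1719. In the wider lists 23 of 168 tested genes rose and 47 fell, 41.7% in all, where 38.4% of all tested genes were called. With the astrocyte score these counts were 0 and 0. The replicate numbers did not pair the samples: same-numbered libraries had correlations of -0.133 to 0.021, and 0 of 5 matched best with their own number. With the replicate block 3528 genes were called, and Nes passed (-0.61, adjusted p = 0.0382). Sox11, Mki67 and Igfbpl1 rest on few counts, so their limits include counting error. The covariates were scores that differ between the groups. The astrocyte score and the pair of libraries left out were added after seeing the data.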
